A study of Mus musculus with 2 samples.

Results

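The MHC class I and immunoproteasome genes are a set of 10 mouse genes taken by symbol from the gene lists of all 8 count matrices: B2m, H2-K1, H2-D1, Tap1, Tap2, Tapbp, Psmb8, Psmb9, Psmb10 and Nlrc5. All 10 were found, among 32432 genes, and their UMI counts (unique molecular identifiers, 1 per captured transcript) were read in leukocytes sorted from B16-F10 melanomas. B16-F10 is an established mouse melanoma line. In the Trex1 iKO group both Trex1 alleles were conditional (fl/fl), and in the Trex1 control group 1 allele was conditional and 1 wild type (wt/fl), so the controls were not wild-type mice. All mice of both groups were male, 8 to 12 weeks old, and carried R26CreERT2-ki/wt, a Cre recombinase that tamoxifen activates. The Rosa26 locus drives it in host cells at large, not in 1 leukocyte type, and the injected tumour cells do not carry it. Each mouse received 1000 tumour cells in Matrigel into the skin of both legs and, for 3 days from day 5, 1 mg of tamoxifen. Tumours were collected on day 14, leukocytes were enriched with CD45 beads and live CD45-positive cells were sorted. Each group gave 4 samples marked with hashtag antibodies, run as 1 pool per genotype, so that genotype and pool cannot be told apart in any comparison here. The labels do not say whether each hashtagged sample was 1 mouse, and every p-value measures the spread between these samples.

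MHC class I molecules show peptides from inside the cell to CD8 T cells. Proteasomes cut proteins into peptides, and in immune cells or after interferon the subunits Psmb8, Psmb9 and Psmb10 take the place of Psmb5, Psmb6 and Psmb7 in the catalytic core, which makes the immunoproteasome. Tap1 and Tap2 together form the transporter that moves peptides into the endoplasmic reticulum, tapasin (Tapbp) holds the empty class I molecule at the transporter, and the heavy chains H2-K1 and H2-D1 leave with beta-2-microglobulin (B2m) and a peptide for the cell surface. Nlrc5 is the transactivator of class I genes, and interferons are known to raise it and most of the other members. Trex1, the gene targeted in this model, encodes an exonuclease that degrades cytosolic DNA, and its loss is known for interferon signalling through cGAS and STING.

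The study was made to ask how induced loss of Trex1 in the host shapes the leukocytes of the tumour. Libraries held 19370674 to 96457227 UMIs in the iKO group and 17111065 to 33319752 in the control group, and of 23731 barcodes 22052 were kept (13232 iKO, 8820 control). The median number of UMIs per cell was 12535.5 to 14221 in iKO and 5794 to 11490 in the controls, a deeper reading of the iKO cells. Samples of 1 pool shared 0 barcodes, and 45 barcodes occurred in both pools. Trex1 itself could not check the labels: the 4 iKO samples and control samples 1, 3 and 4 held 0 Trex1 UMIs, and control sample 2 held 2 of 16605777. Marker genes placed 19324 cells in 11 leukocyte classes, of which 1702 led the next class by a score of less than 0.2 (1145 of them among 8799 monocytes/macrophages). Summed neutrophil markers (6 genes) were higher in every control sample than in any iKO sample in 7 of the 8 other tested classes, at 292 to 444 CPM (UMIs per 1000000) against 78.0 to 117 in CD8 T cells, 585 to 749 against 201 to 294 in B cells and 293 to 583 against 127.9 to 234 in monocytes/macrophages, for example. In mature dendritic cells they overlapped (206 to 408 against 79.5 to 375), and in natural killer cells they were 338 to 478 in the 2 control samples and 126 to 2388 in the 2 iKO samples. Summed melanoma markers (5 genes) were at most 32.6 CPM in monocytes/macrophages (14.3 to 32.6 in iKO against 6.60 to 15.05 in control samples). The part of these RNAs in the results below was not tested. Of the samples, control sample 1 was the highest control for all 10 members in monocytes/macrophages and in mature dendritic cells, and iKO samples 1 and 2 both exceeded iKO samples 3 and 4 for all 10 members in monocytes/macrophages, neutrophils, regulatory T cells and mature dendritic cells.

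The members lie on 3 chromosomes. In the GENCODE annotation of GRCm38, used for position only, B2m is at chr2:122147686-122153083, and Nlrc5 (chr8:94434356-94527272) and Psmb10 (chr8:105935735-105938444) share chromosome 8. The other 7 lie in the MHC on chromosome 17, in the order Tapbp (chr17:33915899-33929292), H2-K1 (chr17:33996017-34000347), Psmb9 (chr17:34181987-34187764), Tap1 (chr17:34187553-34197225), Psmb8 (chr17:34197721-34201454), Tap2 (chr17:34203527-34216321) and H2-D1 (chr17:35262730-35267499). Tap1 and Psmb9 point away from each other, with 225 bases between their RefSeq starts, while their GENCODE spans overlap. RefSeq promoter windows (250 bases before to 50 after each start, GRCm38.p6) were held for 8 of the 10 members, all but Tap2 and Nlrc5. Stretches of those of B2m, both heavy chains and the Tap1 and Psmb9 pair are shown because they hold matches to the kappaB, interferon response or TGACG patterns named below. The Tapbp window matched CCAAT alone, and those of Psmb8 and Psmb10 matched none of these patterns.
B2m: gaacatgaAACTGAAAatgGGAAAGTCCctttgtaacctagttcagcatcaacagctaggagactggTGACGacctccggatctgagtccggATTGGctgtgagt
H2-K1: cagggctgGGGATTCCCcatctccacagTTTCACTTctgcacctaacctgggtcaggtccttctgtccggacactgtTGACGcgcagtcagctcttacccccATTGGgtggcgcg
H2-D1: GGGATTCCCcatctcctcagTTTCACTT
Tap1 and Psmb9, shared: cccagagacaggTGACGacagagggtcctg
They are the plus strand of chr2:122147542-122147646 (B2m), the minus strand of chr17:34000351-34000465 (H2-K1), the plus strand of chr17:35262924-35262951 (H2-D1) and the plus strand of chr17:34187458-34187487 (Tap1 and Psmb9), each read 5′ to 3′. Capitals mark matches, on either strand, to GGGATTCCC or GGACTTTCC (kappaB forms), AANNGAAA (an interferon response element core), TGACG (a cAMP response half-site) and CCAAT. Patterns like the last 2 are parts of the S-X-Y module through which Nlrc5 and RFX factors are known to act on class I promoters. B2m carries the complement forms GGAAAGTCC and ATTGG, and both heavy chains carry TTTCACTT, the interferon pattern on the opposite strand. H2-K1 and H2-D1 were identical at 27 of 28 bases from GGGATTCCC through TTTCACTT, and at 78 of 82 bases from 8 bases before GGGATTCCC through TGACG. Of 32851 mouse promoter windows of the same length, 0.353% held GGGATTCCC, 0.344% GGACTTTCC, 23.9% AANNGAAA, 20.8% TGACG and 37.4% CCAAT. By the GENCODE spans above, the printed H2-D1 stretch lies inside H2-D1, and the Tap1 and Psmb9 stretch lies inside Psmb9. A match describes the letters only.

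In iKO tumours 7 members were called higher in neutrophils (2.25% of all genes), 7 in monocytes/macrophages (5.81%) and 7 of 9 tested in B cells (1.9%). In CD8 T cells 6 were called higher (1.58% of all genes) and in CD4 T cells 3 (1.48%). Leaving out 1 sample could take the monocyte/macrophage and the CD4 T counts to 0. Whether called or not, the members had log2 fold changes above 0 in every class in which they were tested. No member was called lower, and of 1527 member values under the alternative settings 1516 were above 0 (the exceptions were Nlrc5 in CD8 T cells, regulatory T cells and cDC1, Psmb10 in regulatory T cells and Psmb9 in cDC2, all without a call). These values are refits of the same samples and are not independent of each other or of the main fit. Levels are CPM, the gene's UMIs scaled to 1000000 UMIs of that class in that sample. Differences are log2 fold changes, iKO over control, with the standard error from edgeR's quasi-likelihood test, run on all genes of each class. A gene is called where the Benjamini-Hochberg adjusted p is under 0.05. Shares of all genes called use this threshold, and counts at an unadjusted p under 0.05 are given without such a share. In monocytes/macrophages the 10 members together made up 0.662% ± 0.104 of UMIs in control and 1.15% ± 0.249 in iKO samples (SD, n = 4 each). The same sum was 0.442% ± 0.0667 against 0.804% ± 0.182 in neutrophils, 0.549% ± 0.0252 against 0.815% ± 0.0638 in B cells and 0.755% ± 0.0551 against 0.990% ± 0.0239 in CD8 T cells. The lowest iKO sample exceeded the highest control sample in each of these 4 classes. Mature dendritic cells, which carry antigen to T cells, held the largest share of the 9 tested classes in both groups, 1.23% ± 0.120 in control and 1.65% ± 0.246 in iKO samples. Over the 9 classes there were 30 member calls, and the median member log2 fold change ran from 0.31 in regulatory T cells to 1.18 in neutrophils, while the median over all tested genes lay between -0.02 and -0.01 in each class.

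**Figure D1:**
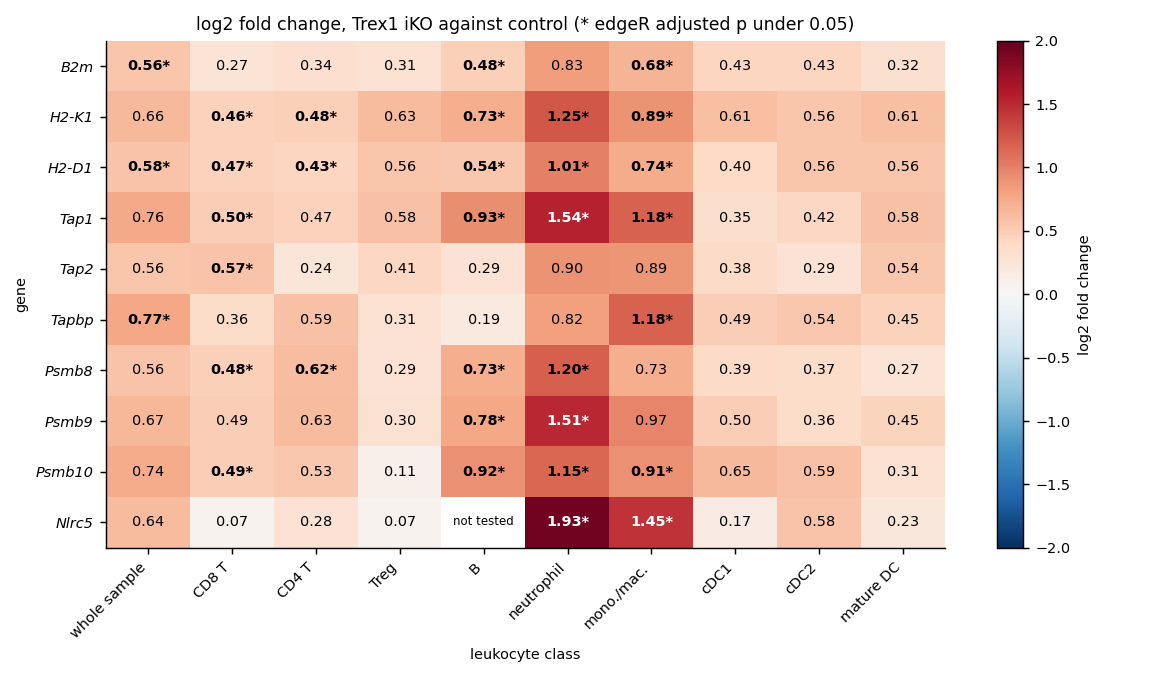
Log2 fold changes (iKO over control) of the 10 members (rows) in the whole-sample sums and the 9 tested leukocyte classes (columns). An asterisk marks an adjusted p under 0.05 from edgeR, and the words "not tested" mark a gene too low to test. Every cell with a value is above 0, the neutrophil column reaches 1.93 for Nlrc5, and the regulatory T cell column and the 3 dendritic cell columns carry no asterisk.

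Of the 9 classes, neutrophils had the largest median member fold change. All 10 had an unadjusted p under 0.05 and 7 were called higher (all but B2m, Tap2 and Tapbp), where 2.25% of all genes tested in neutrophils were called higher and 0.193% lower. For 6 members every iKO sample lay above every control sample, against 3.24% of all genes. TMM scaling shifted the neutrophil profiles by -0.17 (log2, iKO minus control). With library size alone in its place the median of all genes was -0.18, 3 members were called and all 10 were still above 0. The count was 4 without iKO sample 1 or control sample 4, where calls over all genes went from 139 to 103 and 98. The same sample number was also used as a block here and below, a pairing taken from these data alone, with limited support. In neutrophils 8 members were then called, Tap2 being the addition at 0.87 (adjusted p = 0.0430), and calls over all genes rose to 257. Summed monocyte/macrophage markers (7 genes) in these neutrophil profiles were 2265 to 3528 CPM in iKO and 1357 to 2460.0 in control samples. The part of that RNA in the neutrophil values was not tested.

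In monocytes/macrophages, the most numerous class, 7 of 10 members were called higher (all but Tap2, Psmb8 and Psmb9) and all 10 had an unadjusted p under 0.05. The background was high in this class, with 5.81% of all genes called higher and 5.08% lower. Groups did not overlap for 8 members, against 14.1% of all genes. The calls depended on single samples. None of the 10 passed when iKO sample 1, iKO sample 2, or control sample 2, 3 or 4 was left out (log2 fold changes of the 7 were 0.57 to 1.41, adjusted p 0.0527 to 0.124). All 10 then had an unadjusted p under 0.05, for which no share of all genes is given. In the same omissions the calls over all genes fell from 1276 to 733 without control sample 3 and to 458 or fewer in the other 4. Without iKO sample 3, 10 passed, and 9 without iKO sample 4 or control sample 1 (1461, 1182 and 1692 calls over all genes). With the sample number as a block all 10 passed, Tap2 at 0.80 (adjusted p = 0.0495), Psmb8 at 0.70 (adjusted p = 0.0279) and Psmb9 at 0.91 (adjusted p = 0.0189), while calls over all genes were 1142.

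B cells gave 7 calls among 9 members tested (B2m, H2-K1, H2-D1, Tap1, Psmb8, Psmb9 and Psmb10), Nlrc5 being too low to test. Of all genes in B cells, 1.9% were called higher and 0.948% lower. Samples of the groups did not overlap for 5 members, against 3.88% of all genes. Psmb9 and Psmb10 were the B cell calls that 1 sample could end: Psmb9 lost its call without iKO sample 2 or 4, or control 2, 3 or 4 (0.56 to 0.78, adjusted p 0.0629 to 0.247) and with the block (0.71, adjusted p = 0.0925), and Psmb10 without control sample 3 (0.90, adjusted p 0.0739).

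In CD8 T cells, the cells that read class I peptides, 6 members were called (H2-K1, H2-D1, Tap1, Tap2, Psmb8 and Psmb10) and 9 had an unadjusted p under 0.05, with 1.58% of all genes called higher and 1.03% lower. The groups did not overlap for 9 members, against 5.46% of all genes, and the exception was Nlrc5. The count fell to 2 without control sample 2, 3 or 4 and to 3 without iKO sample 1 or 2, while calls over all genes fell from 251 to between 111 and 180. It rose to 9 with the block, which added B2m at 0.28 (adjusted p = 0.0295), Tapbp at 0.36 (adjusted p = 0.0403) and Psmb9 at 0.50 (adjusted p = 0.00789), and calls over all 9629 genes rose with it, to 684. When each cell was thinned to 2000 UMIs edgeR called 0 members in CD8 T cells (8 at an unadjusted p under 0.05), and the median member log2 fold change was 0.42 against 0.47 without thinning.

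CD4 T cells gave 3 calls (H2-K1, H2-D1 and Psmb8), where 1.48% of all genes were called higher, and no overlap for 3 members, where 4.68% of all genes had none. None of these CD4 T calls remained without iKO sample 1 or control sample 4, and 1 remained without control sample 2 or 3, while calls over all genes fell from 118 to between 72 and 97. With the block Psmb9 passed too, at 0.66 (adjusted p = 0.0290), and calls over all genes were 133. Regulatory T cells gave 0 calls with edgeR (5 at an unadjusted p under 0.05), with 0.959% of all genes called higher. They gave 1 member call with DESeq2, where 165 genes were called in all. Their groups did not overlap for 3 members, against 5.82% of all genes. With the block 3 members passed in regulatory T cells, H2-K1 at 0.63 (adjusted p = 0.00809), H2-D1 at 0.56 (adjusted p = 0.0116) and Tap1 at 0.58 (adjusted p = 0.0488). Without iKO sample 4 the count was 2, and without control sample 1 it was 3. Calls over all genes in regulatory T cells were 133, and 220, 179 and 315 under these alternatives.

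Dendritic cells gave no call with edgeR in any of 3 classes. In type 1 conventional dendritic cells (cDC1), which cross-present antigen on class I, 7 members had an unadjusted p under 0.05. There edgeR called 0.458% of all genes higher. DESeq2 called 1 member, where it called 89 genes in all. Control sample 2 held fewer than 20 cDC1 cells and was left out. Type 2 conventional dendritic cells (cDC2) lacked iKO sample 1 for the same reason. They had 3 members at an unadjusted p under 0.05, with 0.0128% of all genes called higher by edgeR. Their median member log2 fold change was 0.48, and 0.12 without iKO sample 2 (members from -0.051 to 0.33). They gave 0 member calls with DESeq2, where 52 genes were called in all. Mature dendritic cells had 9 at an unadjusted p under 0.05, with 0.0917% of all genes called higher by edgeR. They gave 3 member calls with DESeq2, where 99 genes were called in all. Their groups did not overlap for 4 members, against 2.57% of all genes, and H2-K1 (0.60, adjusted p = 0.0225), H2-D1 (0.55, adjusted p = 0.0343) and Tap1 (0.56, adjusted p = 0.0374) passed with the block. Without iKO sample 4, 3 members passed in mature dendritic cells. Calls over all genes there rose from 9 to 79 with the block and to 115 without iKO sample 4. Few genes of any kind passed with edgeR in these 3 classes. Those shares are at the adjusted threshold, so they are no background for the member counts at an unadjusted p.

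In the sums over all sorted leukocytes, 3 members were called (B2m, H2-D1 and Tapbp), with 1.69% of all 13459 genes called higher, and 10 had an unadjusted p under 0.05. Groups did not overlap for 7 members, against 8.41% of all genes. In these sums a change in the make-up of classes and a change within a class cannot be told apart. The count was 1 without iKO sample 1, iKO sample 2, control sample 2 or control sample 3 (log2 fold changes of lost calls 0.50 to 0.76, adjusted p 0.0514 to 0.123). With the block it was 8, adding H2-K1 (0.66, adjusted p = 0.0166), Tap1 (0.73, adjusted p = 0.0162), Psmb8 (0.55, adjusted p = 0.0382), Psmb9 (0.65, adjusted p = 0.0293) and Psmb10 (0.74, adjusted p = 0.0238). Calls over all genes in these sums were 340, 108 to 158 in the same omissions and 708 with the block. Natural killer cells (2 samples a group with enough cells) and plasmacytoid dendritic cells (4 iKO samples and 1 control) were described without a test.

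The class I molecule itself is made of a heavy chain and B2m. Its heavy chains rose in CD8 and CD4 T cells, B cells, neutrophils and monocytes/macrophages. H2-K1, 1 of the 2 classical heavy chains measured, stood in monocytes/macrophages at 2279, 2427, 1593 and 1685 CPM in iKO samples 1 to 4 and 1315, 1009.7, 1073 and 838 in controls 1 to 4. Every iKO sample lay above every control sample, iKO samples 1 and 2 were highest and control sample 4 was lowest. This gave a log2 fold change of 0.89 ± 0.19 (adjusted p = 0.0212), a call lost when any 1 of the 5 samples named above was left out (0.76 to 0.89, adjusted p 0.0527 to 0.0668). In B cells the H2-K1 values were 2551, 2482, 2412 and 2296 CPM in iKO samples 1 to 4 and 1632, 1530.3, 1438 and 1416 in controls 1 to 4, closer together within each group. The B cell log2 fold change was 0.73 ± 0.08 (adjusted p = 5.86e-06), the smallest adjusted p of any member in any class. Neutrophil H2-K1 was 1697, 1800.0, 1103 and 1005 CPM in iKO samples 1 to 4 and 630.4, 603, 813 and 569.6 in controls 1 to 4, again without overlap (1.25 ± 0.21, adjusted p = 0.00493). CD8 T cells held 2567 ± 246 in iKO and 1894 ± 110.2 in control samples (SD, n = 4 each), a log2 fold change of 0.46 ± 0.08 (adjusted p = 0.0144), which lost its call without control sample 2, 3 or 4 (0.43 to 0.48, adjusted p 0.0543 to 0.0631). CD4 T cells gave 0.48 ± 0.10 (adjusted p = 0.0126), lost without iKO sample 1 or control sample 4 (0.42 to 0.43, adjusted p 0.0526 to 0.0582). Regulatory T cells, with the highest H2-K1 level of the 9 classes, gave 0.63 ± 0.17 (adjusted p = 0.0663).

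H2-D1, the other heavy chain, was called in the same 5 classes as H2-K1. In monocytes/macrophages its values were 3601, 3732, 2664 and 2796 CPM in iKO samples 1 to 4 and 2309.6, 1741, 1909.5 and 1591 in controls 1 to 4, without overlap, and the log2 fold change was 0.74 ± 0.16 (adjusted p = 0.0242). That call, too, was lost when any 1 of the 5 samples named above was left out (0.63 to 0.73, adjusted p 0.0568 to 0.0757). Neutrophils held 3722, 3407, 3357 and 2694 CPM in iKO samples 1 to 4 and 1898, 1579, 2338 and 1555 in controls 1 to 4 (1.01 ± 0.20, adjusted p = 0.0179). This call was lost without iKO sample 1 or 3, or control 2 or 4 (0.92 to 0.99, adjusted p 0.0509 to 0.0894). B cells gave 0.54 ± 0.08 (adjusted p = 0.000326), CD8 T cells 0.47 ± 0.07 (adjusted p = 0.00827) and CD4 T cells 0.43 ± 0.09 (adjusted p = 0.0171). The CD4 T value lost its call without iKO sample 1 or control sample 2, 3 or 4 (0.39 to 0.43, adjusted p 0.0659 to 0.0721). Reads of H2-D1 may be split with near-identical sequence, since 17.1% of 251 windows of 50 bases in the last 300 bases of its longest transcript occurred in 80 other genes, against 0.797% for H2-K1 (shared with H2-D1) and 0 for the other 8 members. H2-D1 levels are therefore less certain than those of the other members.

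B2m, the light chain that all classical class I molecules need, was called in fewer classes than its heavy chains. Its monocyte/macrophage values were 4824, 4760.0, 3272 and 3403 CPM in iKO samples 1 to 4 and 2839, 2646, 2484 and 2015 in controls 1 to 4, again with no overlap. The log2 fold change was 0.68 ± 0.18 (adjusted p = 0.0390), lost when any 1 of the 5 samples named above was left out (0.57 to 0.72, adjusted p 0.0815 to 0.108). In B cells it was 2159, 2192, 1758 and 1771 CPM in iKO samples 1 to 4 and 1508, 1445, 1409 and 1393 in controls 1 to 4 (0.48 ± 0.09, adjusted p = 0.00259). B2m was called in these 2 of the 9 classes. In CD8 T cells B2m was 2697 ± 139 in iKO and 2260.2 ± 231 in control samples (SD, n = 4 each), a log2 fold change of 0.27 ± 0.08 (adjusted p = 0.125) that did not pass. Neutrophils held 2698, 3126, 1811 and 1563 CPM in iKO samples 1 to 4 and 1356, 1345, 1701 and 1322 in controls 1 to 4, where control sample 3 stood above the other controls, and the difference of 0.83 ± 0.22 (adjusted p = 0.0721) did not pass either.

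**Figure D2:**
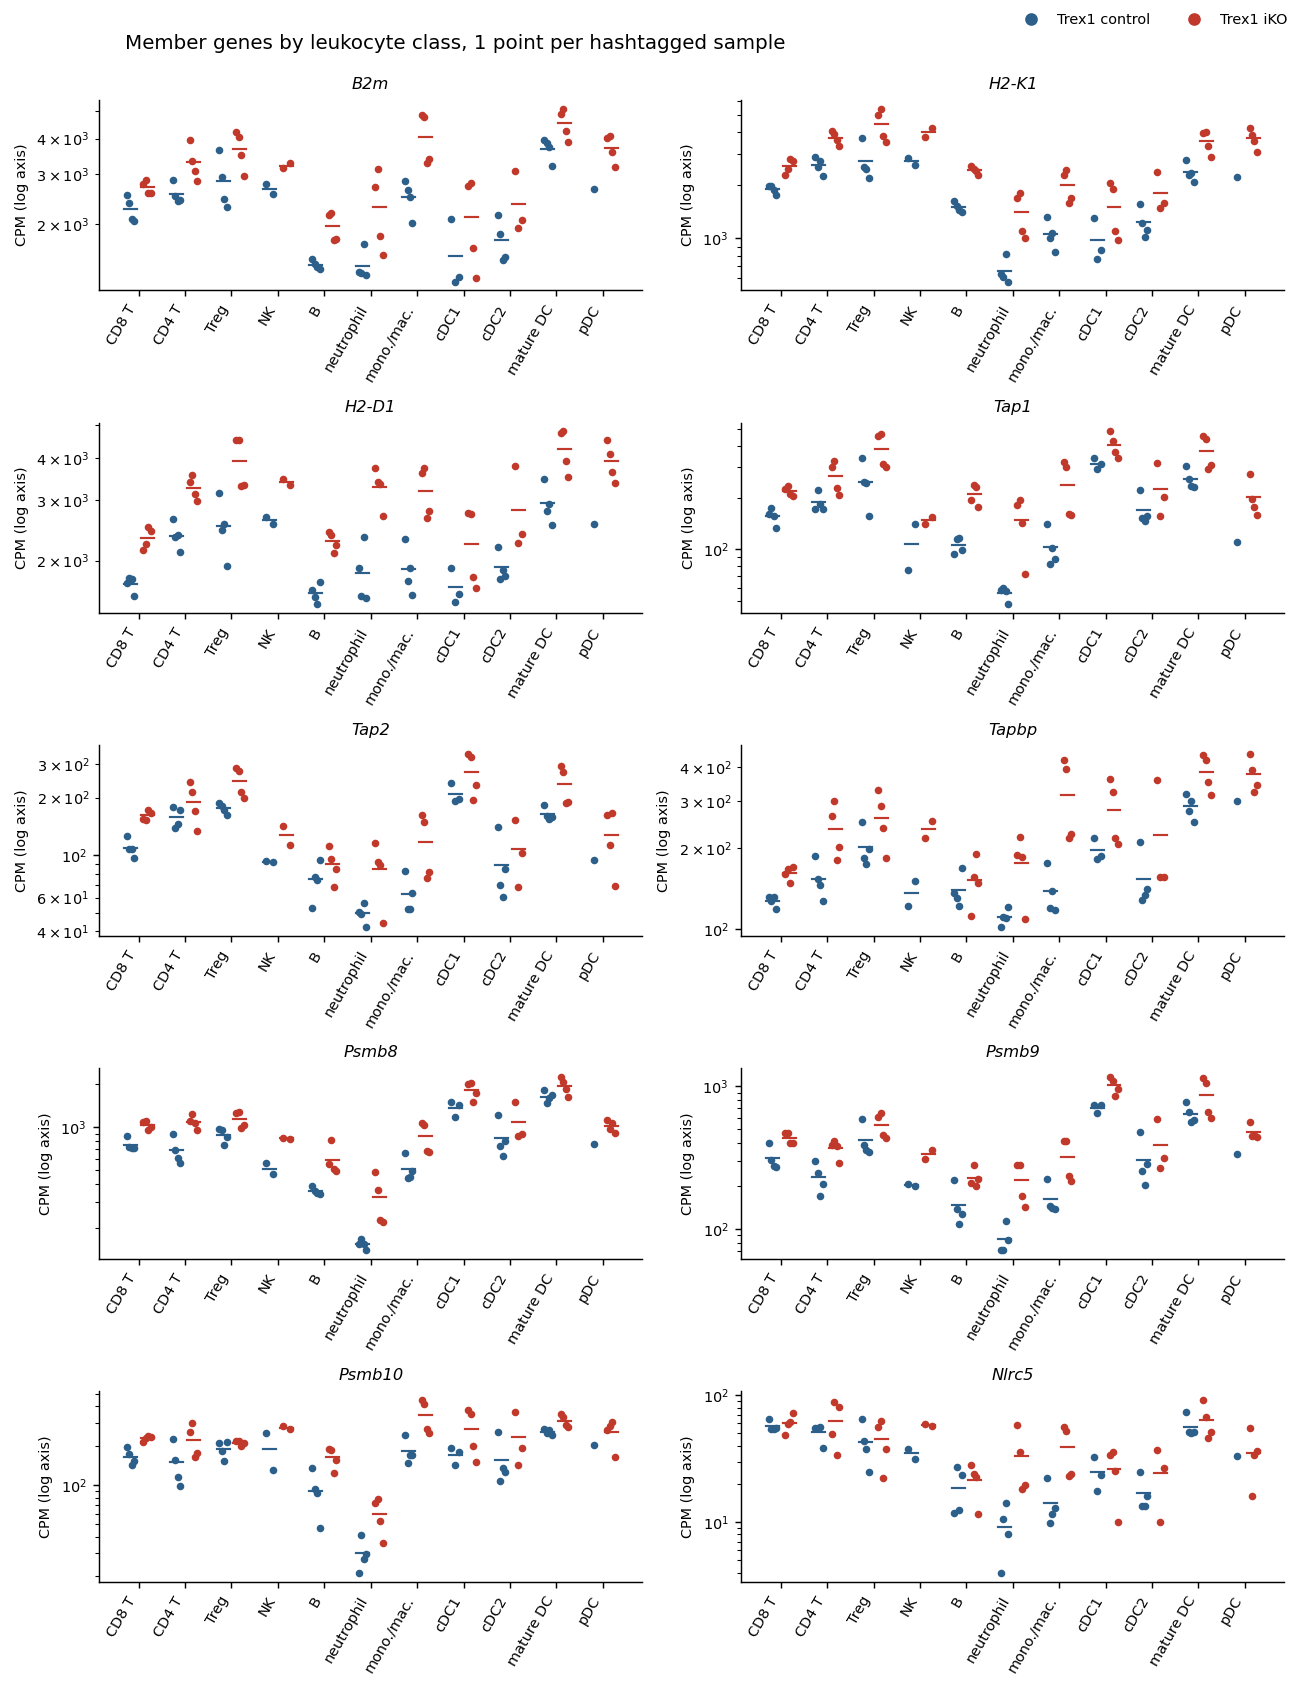
Level of each member (1 panel per gene, log axis, CPM) in 11 leukocyte classes, with 1 point per hashtagged sample, iKO beside control, and lines at the group means. For H2-K1 the B cell points lie at 2296 to 2551 in iKO and 1416 to 1632 in control samples, with no overlap between the groups.

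The transporter subunits were both called in CD8 T cells. Tap1 there was 224, 233, 209 and 205 CPM in iKO samples 1 to 4 and 160.2, 175, 157 and 133 in controls 1 to 4. The groups did not overlap, and the log2 fold change was 0.50 ± 0.10 (adjusted p = 0.0242), lost without iKO sample 1 or 2, or control 3 or 4 (0.44 to 0.50, adjusted p 0.0639 to 0.0885). Tap2 in CD8 T cells was 154, 153, 172 and 166 CPM in iKO samples 1 to 4 and 126, 108, 108 and 96.8 in controls 1 to 4, the largest member fold change of that class at 0.57 ± 0.09 (adjusted p = 0.0115), lost without control sample 2 (0.56, adjusted p 0.0515). Neutrophil Tap1 was 182, 193, 143 and 71.9 CPM in iKO samples 1 to 4 and 57.8, 60.02, 57.6 and 47.9 in controls 1 to 4, so that the lowest iKO sample exceeded the highest control sample and iKO samples 1 and 2 held about the same level (1.54 ± 0.27, adjusted p = 0.00661). In B cells Tap1 was 193, 238, 232 and 178 CPM in iKO samples 1 to 4 and 94.6, 116, 116 and 98.8 in controls 1 to 4 (0.93 ± 0.17, adjusted p = 0.00132). Tap2 in B cells was 112, 95.1, 68.1 and 85.0 CPM in iKO samples 1 to 4 and 53.2, 77.1, 74.5 and 94.1 in controls 1 to 4, with overlap between the groups, and did not pass (0.29 ± 0.20, adjusted p = 0.612). Monocytes/macrophages held Tap1 at 324, 301, 162 and 158 CPM in iKO samples 1 to 4 and 141, 82.8, 103 and 88.4 in controls 1 to 4 (1.18 ± 0.30, adjusted p = 0.0354), a call lost when any 1 of the 5 samples named above was left out (0.96 to 1.16, adjusted p 0.0794 to 0.101). There iKO samples 1 and 2 were near the same level, iKO samples 3 and 4 stood lower, and control sample 1 came close to these. Tap2 in monocytes/macrophages was 162, 149, 75.6 and 81.9 CPM in iKO samples 1 to 4 and 83.2, 52.3, 52.4 and 63.2 in controls 1 to 4, where control sample 1 reached above iKO samples 3 and 4, and it did not pass (0.89 ± 0.30, adjusted p = 0.0818).

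Tapbp, the tapasin that bridges transporter and heavy chain, was called in monocytes/macrophages. The values were 425, 394, 218 and 227 CPM in iKO samples 1 to 4 and 177, 119.7, 138 and 117 in controls 1 to 4, without overlap, and the log2 fold change was 1.18 ± 0.27 (adjusted p = 0.0249), a 2.27-fold difference. This call too was lost when any 1 of the 5 samples named above was left out (0.98 to 1.17, adjusted p 0.0595 to 0.0788). In CD8 T cells Tapbp was 162 ± 9.53 in iKO and 127 ± 6.20 in control samples (SD, n = 4 each) and missed the threshold at 0.36 ± 0.08 (adjusted p = 0.0506). B cells showed the smallest Tapbp difference, 0.19 ± 0.18 (adjusted p = 0.724), with 112, 157, 191 and 149 CPM in iKO samples 1 to 4 and 136, 131, 122 and 169 in controls 1 to 4. Neutrophils gave 0.82 ± 0.21 (adjusted p = 0.0745).

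The 3 inducible proteasome subunits were all called in neutrophils and in B cells. Psmb8 (LMP7), the chymotrypsin-like subunit, was in neutrophils 487, 366, 227 and 220.3 CPM in iKO samples 1 to 4 and 154, 166, 154 and 140.0 in controls 1 to 4 (1.203 ± 0.22, adjusted p = 0.00984). Psmb9 (LMP2) in neutrophils was 282, 279.9, 171 and 143 CPM in iKO samples 1 to 4 and 71.1, 71.6, 113 and 83.4 in controls 1 to 4. All iKO samples were above all controls, with a log2 fold change of 1.51 ± 0.23 (adjusted p = 0.00272), the lowest adjusted p of the class's members. Psmb10 (MECL-1) in neutrophils was 73.4, 77.8, 52.6 and 36.0 CPM in iKO samples 1 to 4 and 21.3, 41.6, 27.2 and 29.6 in controls 1 to 4, from 19 to 67 UMIs per sample. The difference of 1.15 ± 0.26 (adjusted p = 0.0389) lost its call without iKO sample 1, 2 or 3, or control 1, 3 or 4 (0.98 to 1.15, adjusted p 0.0724 to 0.109). B cells held Psmb8 at 554, 808, 509 and 494 CPM in iKO samples 1 to 4 and 390.3, 358, 351 and 344 in controls 1 to 4 (0.73 ± 0.15, adjusted p = 0.00462). Their Psmb9 was 229 ± 36.0 in iKO and 148 ± 48.8 in control samples (0.78 ± 0.20, adjusted p = 0.0281), and their Psmb10 163 ± 30.9 against 90.5 ± 36.4 (0.92 ± 0.21, adjusted p = 0.0130, all SD with n = 4 each).

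In monocytes/macrophages 1 of the 3 inducible subunits passed. Psmb10 was 450.2, 419, 267 and 249 CPM in iKO samples 1 to 4 and 243, 147, 169 and 170.4 in controls 1 to 4 (0.91 ± 0.25, adjusted p = 0.0460). All iKO samples lay above all controls, and the call was lost when any 1 of the 5 samples named above was left out (0.73 to 0.89, adjusted p 0.101 to 0.124). Psmb8 was 1077, 1036, 687 and 668 CPM in iKO samples 1 to 4 and 666, 444, 449 and 493 in controls 1 to 4, without overlap but by a narrow gap between control sample 1 and iKO samples 3 and 4, and did not pass (0.73 ± 0.22, adjusted p = 0.0592). Psmb9 was 415, 415, 235 and 215 CPM in iKO samples 1 to 4 and 225, 145, 139.8 and 138 in controls 1 to 4, where control sample 1 lay above iKO sample 4, and did not pass (0.97 ± 0.28, adjusted p = 0.0541). CD8 T cells had Psmb8 at 1086, 1111, 952 and 997 CPM in iKO samples 1 to 4 and 862, 727, 717 and 711 in controls 1 to 4 (0.48 ± 0.09, adjusted p = 0.0225). There control sample 1 was the highest control and still lay below every iKO sample. Psmb10 in CD8 T cells was 229 ± 9.74 in iKO and 165 ± 22.6 in control samples (0.49 ± 0.10, adjusted p = 0.0379), and Psmb9 433 ± 41.2 against 312 ± 58.3 (0.49 ± 0.13, adjusted p = 0.0845, SD, n = 4 each), the last not passing. The CD8 T call of Psmb8 was lost without iKO sample 1 or 2, or control 2, 3 or 4 (0.45 to 0.46, adjusted p 0.0576 to 0.0866), and that of Psmb10 without any sample but control sample 1 (0.42 to 0.51, adjusted p 0.0616 to 0.114). CD4 T cells had Psmb8 at 1091 ± 114 in iKO and 691 ± 145 in control samples (SD, n = 4 each). This difference of 0.62 ± 0.13 (log2, adjusted p = 0.0173) was lost without iKO sample 1 or 2, or control 2, 3 or 4 (0.55 to 0.62, adjusted p 0.0504 to 0.0791).

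Nlrc5, the transactivator, had the largest fold change of the 10 in monocytes/macrophages and in neutrophils, and the smallest in CD8 T cells. In monocytes/macrophages it was 56.1, 52.7, 22.9 and 24.04 CPM in iKO samples 1 to 4 and 22.3, 9.81, 11.7 and 12.9 in controls 1 to 4. That was a log2 fold change of 1.45 ± 0.38 (adjusted p = 0.0420), lost when any 1 of the 5 samples named above was left out (1.201 to 1.41, adjusted p 0.0984 to 0.113). All iKO samples lay above all controls there, by a narrow gap between iKO sample 3 and control sample 1. In neutrophils it was 58.0, 36.0, 18.1 and 19.7 CPM in iKO samples 1 to 4 and 3.99, 10.6, 14.1 and 8.08 in controls 1 to 4, from only 6 to 31 UMIs per sample. The difference there was 1.93 ± 0.39 (adjusted p = 0.0179), lost without iKO sample 1 or 2, or control 4 (1.70 to 1.89, adjusted p 0.0522 to 0.0742). In CD8 T cells the values were 48.2, 59.4, 61.6 and 72.1 CPM in iKO samples 1 to 4 and 64.9, 54.6, 54.5 and 55.5 in controls 1 to 4. The groups overlapped, control sample 1 was second to iKO sample 4, and the log2 fold change was 0.07 ± 0.13 (adjusted p = 0.825), or -0.01 without iKO sample 4. B cells held 2 to 26 Nlrc5 UMIs per sample, below the filter on low counts.

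Whether the genotype difference itself differed between classes was tested as an interaction, with monocytes/macrophages as the reference. No member passed in any of 3 comparisons with edgeR or with limma voom. In CD8 T cells all 10 member differences were smaller than in monocytes/macrophages, 4 of them at an unadjusted p under 0.05 (0.0891% of all genes were called, with a median difference of -0.043). Nlrc5 differed by -1.32 ± 0.42 (adjusted p = 0.239), Tapbp by -0.76 ± 0.25 (adjusted p = 0.242), Tap1 by -0.61 ± 0.27 (adjusted p = 0.357) and B2m by -0.38 ± 0.14 (adjusted p = 0.280). In B cells 8 of 10 were smaller, 3 at an unadjusted p under 0.05 (0.952% of all genes called, median -0.012), with Nlrc5, from few UMIs in B cells, at -1.20 ± 0.44 (adjusted p = 0.320) and Tapbp at -0.92 ± 0.28 (adjusted p = 0.167). Tapbp passed in the B cell comparison without iKO sample 3 (adjusted p = 0.0391) or iKO sample 4 (adjusted p = 0.0331). In neutrophils 9 of 10 were larger than in monocytes/macrophages, 2 at an unadjusted p under 0.05 (0.163% of all genes called, median -0.044), with Psmb9 at 0.56 ± 0.25 (adjusted p = 0.537) and Psmb8 at 0.44 ± 0.21 (adjusted p = 0.583). The classes are therefore not shown to differ in the size of the member changes, nor shown to be alike.

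**Figure D3:**
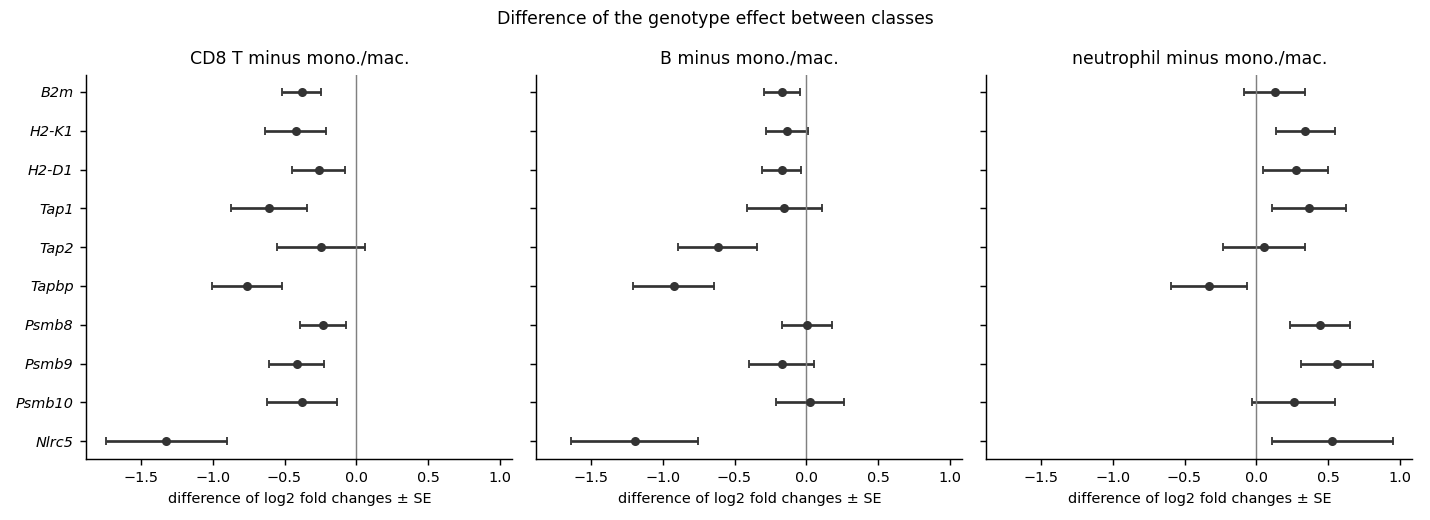
Difference between classes in the log2 fold change of each member (points, with standard errors as bars) for CD8 T cells, B cells and neutrophils, each minus monocytes/macrophages, with a line at 0. CD8 T points all lie below 0, as far as -1.32 for Nlrc5, and neutrophil points lie above 0 except Tapbp at -0.33.

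The 8799 monocytes/macrophages were split by genes that are no members: 3650 cells with at least 2 C1q genes detected (C1qa, C1qb, C1qc, markers of resident-type macrophages) and 4010 cells without them that held Vcan or Chil3 (markers of recently recruited monocytes). In the Vcan- or Chil3-positive cells all 10 members were called higher and none overlapped between groups, where 8.88% of all genes were called higher and 15.6% had no overlap. H2-K1 in these cells was 2044, 2065, 1571 and 1592 CPM in iKO samples 1 to 4 and 1147, 907, 935 and 859.6 in controls 1 to 4 (0.87 ± 0.14, adjusted p = 0.00417). Psmb9 was 399, 398, 248 and 222 against 193, 127, 127 and 142 (1.06 ± 0.23, adjusted p = 0.0150), and Nlrc5 62.3, 57.3, 28.9 and 24.8 against 19.7, 7.02, 12.1 and 15.5 (1.58 ± 0.37, adjusted p = 0.0197). In the C1q-positive cells 0 members were called with edgeR, where 1.51% of all genes were called higher. All 10 had an unadjusted p under 0.05, a threshold for which no share of all genes is given. Groups did not overlap for 1 member, H2-D1, against 8.86% of all genes. C1q-positive cells held H2-K1 at 2411, 2598, 1444 and 1687 in iKO samples 1 to 4 and 1445, 1050.5, 1164 and 823 in controls 1 to 4 (0.86 ± 0.24, adjusted p = 0.0775). Their Psmb9 was 433, 433, 218 and 206 against 253, 157, 148 and 137 (0.90 ± 0.32, adjusted p = 0.141). Member fold changes covered about the same range, 0.66 to 1.32 in C1q-positive and 0.70 to 1.58 in Vcan- or Chil3-positive cells, while standard errors were 0.20 to 0.41 in the first and 0.13 to 0.37 in the second. The difference between these 2 sets of cells was not tested. Neither set was refitted with a sample left out, so how far its calls depend on single samples was not tested.

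**Figure D4:**
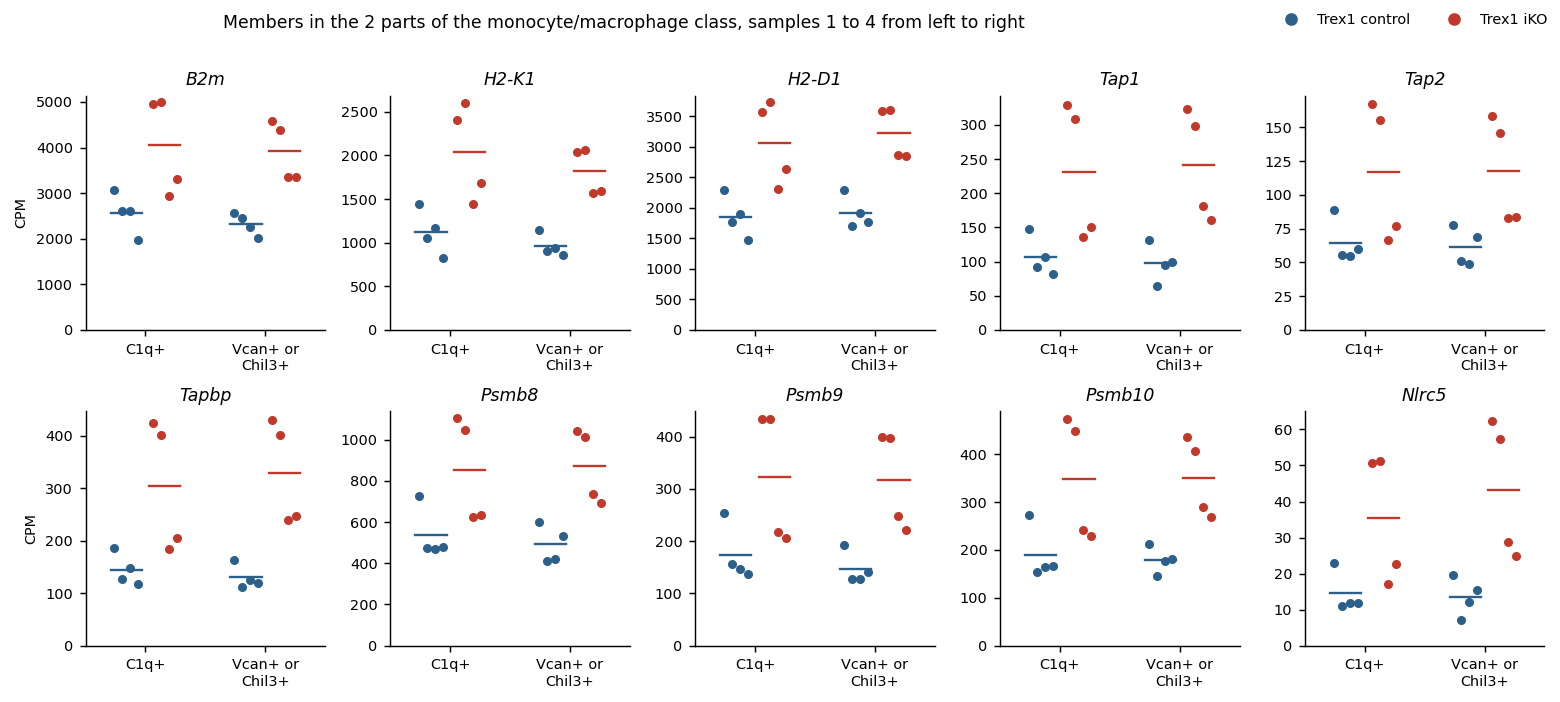
Level of each member (CPM, linear axis from 0) in C1q-positive and in Vcan- or Chil3-positive monocytes/macrophages, samples 1 to 4 of each group from left to right. In the C1q-positive cells control sample 1 lies above the lowest iKO sample for the 9 members other than H2-D1, and in the Vcan- or Chil3-positive cells all iKO points lie above all control points.

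The classes were also ordered by how much of each member they held. By group means, mature dendritic cells were first of the 9 tested classes in both genotypes for B2m, H2-D1, Tapbp and Psmb8, cDC1 for Tap1, Tap2 and Psmb9, and regulatory T cells for H2-K1. For Psmb10 the first class was monocytes/macrophages in iKO and mature dendritic cells in control samples, and for Nlrc5 it was mature dendritic cells in iKO and CD8 T cells in control samples. Neutrophils were last in both genotypes for H2-K1, Tap1, Tap2, Psmb8, Psmb9 and Psmb10. For B2m, Tapbp and Nlrc5 they were last in control samples, and B cells in iKO samples. For H2-D1 the last class was cDC1 in iKO and B cells in control samples. Mature dendritic cells held Psmb8 at 1932 ± 267 CPM in iKO and 1632 ± 146 in control samples, against 325 ± 127 and 154 ± 10.8 in neutrophils (SD, n = 4 each). H2-D1 in neutrophils was 3295 ± 432 in iKO and 1842 ± 366 in control samples. Each class was compared with the next one in the order of each gene over all samples, within samples, by a two-sided exact sign-flip permutation test. None of the 80 pairs of neighbours passed after adjustment (35 had an unadjusted p under 0.05). The smallest p that 8 samples allow is 0.0078125, and the smallest adjusted p was 0.0521. In 17 pairs every sample showed the same direction, among them B cells over neutrophils for Psmb8 (log2 difference 1.07, 8 of 8 samples) and for Psmb10 (1.49, 8 of 8 samples). Natural killer cells held H2-K1 at 3758 and 4186 in the 2 iKO samples and 2856 and 2594 in the 2 control samples with enough cells. Plasmacytoid dendritic cells held H2-K1 at 4226, 3844, 3566 and 3082 in iKO samples 1 to 4 and 2209 in the 1 control sample with enough cells.

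The other genes of the pathway were a list of 60, of which 59 were in the files. The housekeeping subunits that the inducible ones replace, Psmb5, Psmb6 and Psmb7, had 0 calls in each of the 9 classes with edgeR and with DESeq2 (4 of 27 values at an unadjusted p under 0.05). Their log2 fold changes were 0.08 to 0.22 in monocytes/macrophages (adjusted p 0.114 to 0.595) and 0.11 to 0.16 in CD8 T cells (adjusted p 0.584 to 0.698). The remaining core and assembly subunits gave 1 call in the 9 classes, Psma1 in neutrophils (20 of 108 values at an unadjusted p under 0.05, and 2 calls with DESeq2). Of 17 regulatory particle subunits 3 were called in monocytes/macrophages, where 5.81% of all genes were called higher. They were the ATPases Psmc2 at 0.38 (adjusted p = 0.0320), Psmc4 at 0.39 (adjusted p = 0.0321) and Psmc5 at 0.30 (adjusted p = 0.0362). None of the 17 was called in the other 8 classes (33 of all 151 values at an unadjusted p under 0.05, and 9 calls with DESeq2). PA28, a ring that caps proteasomes and opens the core, is made of Psme1 and Psme2. Psme3, listed with them, was at 0.20 (adjusted p = 0.215) in monocytes/macrophages and was called in no class. The lowest value of the 3 genes was -0.14 in CD8 T cells, -0.08 in CD4 T cells and -0.37 in regulatory T cells. In each of these classes the other 2 were above 0. Psme1 was called in CD8 T cells (0.36, adjusted p = 0.0426), B cells (0.66, adjusted p = 0.0241) and neutrophils (0.94, adjusted p = 0.0197), Psme2 in neutrophils (1.11, adjusted p = 0.0326), and neither in monocytes/macrophages, at 0.65 (adjusted p = 0.0760) and 0.73 (adjusted p = 0.0937). Among the loading and trimming genes Erap1, an aminopeptidase that trims peptides in the endoplasmic reticulum, was called in monocytes/macrophages (0.41, adjusted p = 0.0468). Tapbpl, a tapasin relative, was at 0.97 (adjusted p = 0.0990) there, the chaperone calreticulin (Calr) at 0.40 (adjusted p = 0.0864), calnexin (Canx) at -0.09 (adjusted p = 0.525) and Pdia3 at 0.09 (adjusted p = 0.702), and these did not pass.

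Most class I genes outside the members rose in monocytes/macrophages, neutrophils and B cells. Of 9 tested in monocytes/macrophages 7 were higher, with a median log2 fold change of 1.43 over the 9, and in neutrophils 6 of 7, with a median of 1.87. B cells gave 5 of 6 and CD8 T cells 3 of 9. H2-Q7 was 1.61 (adjusted p = 0.0190) in monocytes/macrophages and 0.76 (adjusted p = 0.00402) in CD8 T cells, H2-T22 was 1.51 (adjusted p = 0.0240) and 0.89 (adjusted p = 0.000860), and H2-T23, the mouse Qa-1 gene, was 1.22 (adjusted p = 0.0390) and 0.64 (adjusted p = 0.00956). H2-Q4 (1.43, adjusted p = 0.0160), H2-Q6 (1.86, adjusted p = 0.0389), H2-T24 (1.95, adjusted p = 0.0104) and H2-M3 (0.56, adjusted p = 0.0316) were the other calls in monocytes/macrophages. The H2-Q and H2-T genes are close copies of each other, so reads may be split between them and each value is uncertain. Of the transcription regulators named here, Irf1 was called in neutrophils (1.498, adjusted p = 0.0251), and Rfxap, a subunit of the RFX complex, was the 1 pathway gene called lower, in monocytes/macrophages (-0.44, adjusted p = 0.0472). Over all 59 genes tested in monocytes/macrophages 12 were higher and 1 lower, in CD8 T cells 5 and 0, in neutrophils 11 and 0 of 53, and in B cells 7 and 0 of 49. Of all genes tested, 5.81% were called higher and 5.08% lower in monocytes/macrophages. Higher calls were 1.58% of all genes in CD8 T cells, 2.25% in neutrophils and 1.9% in B cells. In CD4 T cells 3 of 53 were higher (H2-Q7, H2-T23, H2-T22), in regulatory T cells 2 of 54 (H2-Q7, H2-T22) and in mature dendritic cells 1 of 57 (H2-Q6). The shares of all genes called higher were 1.48% in CD4 T cells, 0.959% in regulatory T cells and 0.0917% in mature dendritic cells. The count was 0 of 55 in cDC1 with edgeR (24 at an unadjusted p under 0.05, 3 with DESeq2) and in cDC2 0 of 57 (13 at an unadjusted p under 0.05, 0 with DESeq2). The monocyte/macrophage count of 13 was 2 without iKO sample 1, iKO sample 2 or control sample 2, 3 without control sample 3 and 4 without control sample 4. In neutrophils it was 6 without iKO sample 1 or control sample 2 and 7 without iKO sample 2 or control sample 3, and in CD8 T cells 3 without control sample 2 or 3. With the sample number as a block the counts were 9 in CD8 T cells, 4 in B cells and 6 in CD4 T cells. They were 4 in regulatory T cells, 5 in cDC1 and 4 in mature dendritic cells. Calls over all genes then went from 251 to 684 in CD8 T cells, 118 to 133 in CD4 T cells and 133 to 220 in regulatory T cells. They went from 50 to 148 in cDC1 and 9 to 79 in mature dendritic cells, and fell from 93 to 69 in B cells.

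**Figure D5:**
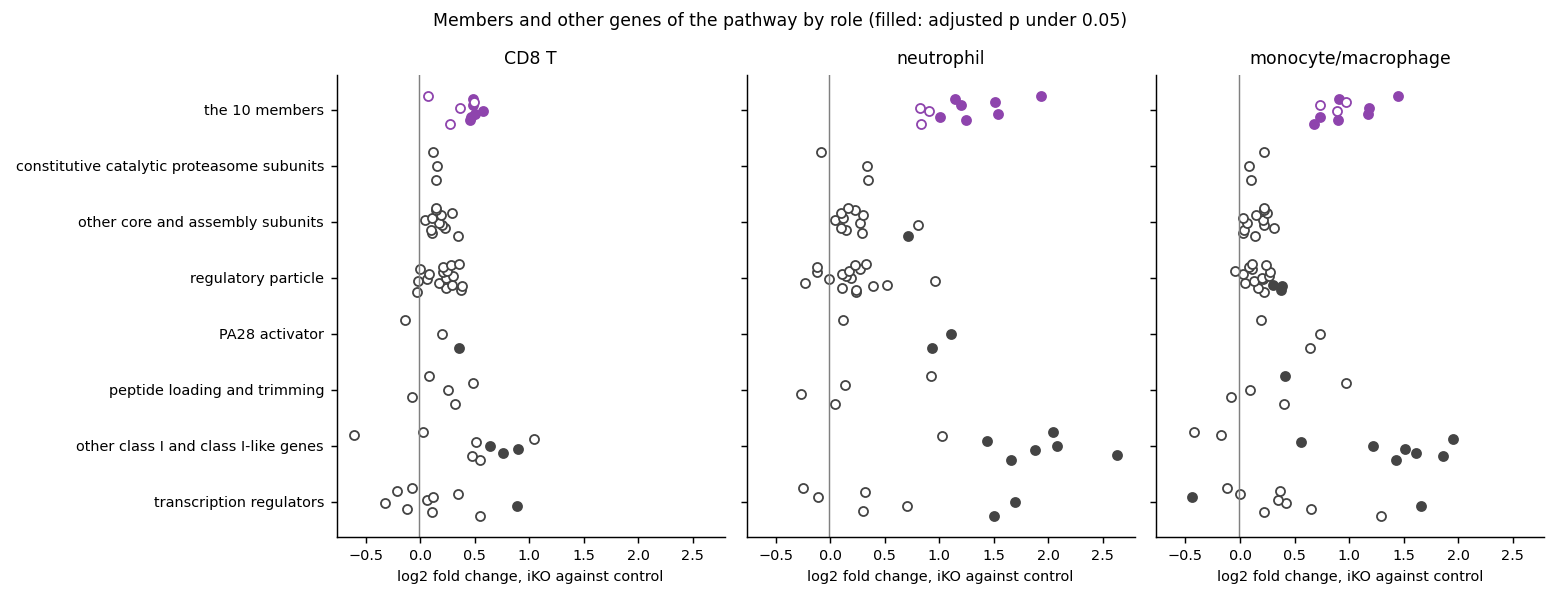
Log2 fold changes of the members and of the other pathway genes, by role, in CD8 T cells, neutrophils and monocytes/macrophages, 1 point per gene, filled where edgeR's adjusted p is under 0.05, with a grey line at the median of all genes tested. The members all lie above 0, and the constitutive catalytic subunits lie between -0.08 and 0.35, with no filled point.

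The exchange of subunits was described as the ratio of an inducible subunit's UMIs to those of the constitutive subunit whose place it takes, within a sample. In CD8 T cells the Psmb8 to Psmb5 ratio was 4.46 ± 0.387 in iKO and 3.50 ± 0.146 in control samples (SD, n = 4 each, exact permutation p = 0.0286, adjusted p = 0.0857). In neutrophils the Psmb9 to Psmb6 ratio was 3.02 ± 0.866 in iKO and 1.32 ± 0.3497 in control samples (SD, n = 4 each, exact permutation p = 0.0286, adjusted p = 0.0857). In B cells this ratio was 2.01 ± 0.293 in iKO and 1.35 ± 0.287 in control samples (SD, n = 4 each, exact permutation p = 0.0286, adjusted p = 0.0857). Monocytes/macrophages had a Psmb8 to Psmb5 ratio of 3.29 ± 1.01 in iKO and 2.11 ± 0.259 in control samples (SD, n = 4 each, exact permutation p = 0.0571, adjusted p = 0.0857). Mature dendritic cells had the highest Psmb8 to Psmb5 ratios and the smallest log2 difference, 0.15, with 9.82 ± 0.691 in iKO and 8.82 ± 0.139 in control samples (SD, n = 4 each, exact permutation p = 0.114, adjusted p = 0.122). Psmb10 to Psmb7 in neutrophils was 1.21 ± 0.424 in iKO and 0.500 ± 0.176 in control samples (SD, n = 4 each, exact permutation p = 0.0571, adjusted p = 0.0857). All 15 ratios (3 pairs in 5 classes) had a higher mean in iKO samples, and none passed after adjustment over the 15 tests, where the smallest p that 4 samples against 4 allow is 0.0286 and the smallest adjusted p was 0.0857.

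Over 70 profiles (1 per class and sample), the genes whose levels were most like those of the members were partly members themselves. These are Pearson correlations of log2 values, given as a description, since the profiles share libraries, depth and classes. H2-K1 was closest to H2-Q7 (0.95), H2-T22 (0.92) and Gbp4 (0.88). H2-D1 was closest to Herc6 (0.85), Rnf114 (0.85) and B2m (0.84). B2m was closest to Gbp5 (0.86) and H2-D1 (0.84). Both transporter genes had each other among their 3 nearest genes: Tap1 was closest to Psmb9 (0.91), Tap2 (0.91) and Psmb8 (0.89), and Tap2 to Tap1 (0.91), Plaat3 (0.88) and Psmb9 (0.88). Tapbp was nearest to Ube2l6 (0.89), H2-T23 (0.83) and Psme2 (0.82). Psmb8 was nearest to Psme1 (0.97), Psmb9 (0.94) and Psme2 (0.91), where Psme1 and Psme2 are the PA28 subunits. Psmb9 was nearest to Psmb8 (0.94), Psme1 (0.92) and Tap1 (0.91), and Psmb10 to Phf11b (0.90), Psmc4 (0.88) and Psmb8 (0.88). Nlrc5 was nearest to H2-Q7 (0.81), Tapbpl (0.80) and AW112010 (0.79).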

How the data were processed

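The values are UMI counts per gene and cell that the authors deposited as 1 matrix for each of 8 hashtagged samples. They were made with Cell Ranger 7.1.0 on GRCm39, per the submitters' processing notes, and the hashtag calls had been applied before deposit. Barcodes with fewer than 300 genes or over 10% mitochondrial counts were removed (1241 barcodes), and then 438 (1.95%) with a Scrublet score above 0.25 (scanpy 1.11.5, Python 3.11.15). The 92 spike-in features held 0 counts. Of the kept cells, 20605 were assigned by marker scores (the mean over markers of log expression scaled to each marker's 0.995 quantile) with at least 2 markers detected and a lead of 0.1 over the next lineage, T cells then being split by Cd8a, Cd8b1, Cd4 and Foxp3, which left 1281 other T cells and 1447 cells without a class. The classes thus rest on rebuilt names.

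Counts were summed per sample and class (at least 20 cells), and classes with at least 3 samples per group were tested over all genes with edgeR 4.0.16 (quasi-likelihood test, TMM, filterByExpr, Benjamini-Hochberg, threshold 0.05, R 4.3.3). DESeq2 1.42.0 and limma 3.58.1 served as alternatives. The edgeR steps were tested on simulated data, and the limma step was not. Interaction fits kept the sample as a block. Other p-values are from exact permutation tests on log2(CPM + 1) or ratios.

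Samples 1 to 4 carry the same numbers in both groups. Deviations from the group means correlated at 0.50, 0.24, 0.14 and 0.53 for equal numbers, all above 0.1, so the numbers were taken as pairs from the data. Some unequal numbers correlated as much, up to 0.58 for iKO sample 2 with control sample 1, so that support is limited. Values with the sample number as a block are given where they change a call. Alternatives were other tools, scaling, filters, gates and depths, and each sample left out. The stricter gate with a wider margin, and the samples left out and the block for the other pathway genes, were added after seeing the data.

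The text names all members, the pathway genes that passed in monocytes/macrophages or CD8 T cells, and all constitutive catalytic, PA28 and loading genes. A result the rule would name is not reported here. The text adds Irf1 in neutrophils, the other pathway calls in CD4 T cells, regulatory T cells and mature dendritic cells, and Psma1, chosen after their values were seen. The members and lists were chosen with earlier results of these data known. Positions and promoters come from GRCm38, not the build of the counts.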

Additional observations from a re-analysis of the deposited data

Results flagged for a closer look

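In 10 of 190 groups of 4 samples (1 member in 1 class and genotype each) the highest or lowest sample stood apart from the other 3 by Dixon's criterion, and chance flags about 1 in 20 such groups. Control sample 1 was the high sample in 7 of them. Its values, in CPM, were 782 for Psmb8 in the whole-sample sums (598 to 624 in the other controls), 862 for Psmb8 in CD8 T cells (711 to 727), 64.9 for Nlrc5 in CD8 T cells (54.5 to 55.5), 225 for Psmb9 in monocytes/macrophages (138 to 145), 222 for Tap1 in cDC2 (146 to 157), 211 for Tapbp in cDC2 (127.9 to 141) and 73.4 for Nlrc5 in mature dendritic cells (49.97 to 51.2). B2m in neutrophils was 1701 in control sample 3 (1322 to 1356 in the others). Nlrc5 in CD4 T cells was low in control sample 4, at 38.3 from 12 UMIs (54.8 to 56.2). Psmb9 in plasmacytoid dendritic cells was 558 in iKO sample 1, from 24 cells (438 to 456).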

How the results depend on the processing

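The Nlrc5 and Psmb10 values in neutrophils rested on 6 to 31 and 19 to 67 UMIs per sample. Standard errors of member log2 fold changes were 0.07 to 0.13 in CD8 T cells, 0.10 to 0.21 in mature dendritic cells and 0.16 to 0.38 in monocytes/macrophages. Leaving out 1 sample gave 1 to 3 member calls in the whole-sample sums, 2 to 7 in CD8 T cells, 0 to 4 in CD4 T cells, 0 to 3 in regulatory T cells, 5 to 7 in B cells, 4 to 10 in neutrophils, 0 to 10 in monocytes/macrophages and 0 to 3 in mature dendritic cells, 0 in cDC1 and cDC2, and 0 to 1 for the B cell difference from monocytes/macrophages. For the other pathway genes the ranges were 1 to 16 in the whole-sample sums, 3 to 6 in CD8 T cells, 3 to 8 in CD4 T cells, 0 to 4 in regulatory T cells, 6 to 8 in B cells, 6 to 11 in neutrophils, 2 to 13 in monocytes/macrophages, 0 to 3 in cDC1 and 0 to 6 in mature dendritic cells. With DESeq2 the member calls were 8 in the whole-sample sums, 1 in regulatory T cells, 1 in cDC1 and 3 in mature dendritic cells, and the other pathway genes gave 16, 10 in CD8 T cells, 6 in CD4 T cells, 21 in monocytes/macrophages, 3 in cDC1 and 6 in mature dendritic cells. With the sample number as a replicate block, members gave 8 in the whole-sample sums, 3 in regulatory T cells and 3 in mature dendritic cells, and the other pathway genes 9 in the whole-sample sums, 9 in CD8 T cells, 6 in CD4 T cells, 4 in regulatory T cells, 4 in B cells, 5 in cDC1 and 4 in mature dendritic cells. Cells thinned to 2000 UMIs gave 0 member calls in CD8 T cells, 3 in regulatory T cells, 4 in B cells and 1 in cDC2. Over all genes the thinned cells gave 84 calls in CD8 T cells, 163 in regulatory T cells, 53 in B cells and 22 in cDC2. Library size alone gave 2 member calls in regulatory T cells and 3 in neutrophils, where 113 and 109 genes were called in all. Without the low-count filter there were 5 member calls in CD4 T cells and 3 in regulatory T cells. That setting also gave 3 in cDC1, 1 in cDC2 and 4 in mature dendritic cells. Over all genes it gave 284 calls in CD4 T cells and 444 in regulatory T cells (118 and 133 with the filter). It gave 369 in cDC1, 147 in cDC2 and 281 in mature dendritic cells (50, 3 and 9 with the filter). C1q-positive cells alone gave 0. With the block the calls over all genes were 708 in the whole-sample sums, 684 in CD8 T cells and 133 in CD4 T cells. They were 220 in regulatory T cells, 69 in B cells, 148 in cDC1 and 79 in mature dendritic cells. The cause of these shifts was not tested.

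Of the single values, 6 changed sign. With 1 sample left out, the Nlrc5 log2 fold change was -0.014 to 0.17 in CD8 T cells (lowest without iKO sample 4), -0.15 to 0.28 in regulatory T cells (below 0 without iKO sample 1, iKO sample 2, control 3 or control 4, at -0.059, -0.15, -0.048 and -0.034) and -0.053 to 0.41 in cDC1 (below 0 without iKO sample 2, at -0.020, or control sample 3). With the replicate block Nlrc5 was -0.032 in regulatory T cells and -0.14 in cDC1. Psmb10 in regulatory T cells was -0.021 to 0.18 (lowest without control sample 3), Psmb9 in cDC2 -0.051 to 0.63 (lowest without iKO sample 2), and the Psmb9 difference between B cells and monocytes/macrophages -0.42 to 0.054 (highest without iKO sample 1). None of these values had a call. With equal weight to each class in place of the whole-sample sums, B2m moved to 0.43, Tapbp to 0.54 and Psmb10 to 0.54. The doublet filter, the 5% limit on mitochondrial counts and the stricter gate with a wider margin moved no count of member calls by more than 1.5 times. The setting log2(CPM + 10) does not enter the edgeR fits, so it could not move such a count. The planned stricter gate, with no marker of another class allowed, left 177 cells and 1 profile and gave no value.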

Other observations

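How far the classes spread in a member's level was compared between the genotypes. This comparison was chosen after the values were seen. Over the 7 classes that all 8 samples held, the log2 range from the lowest to the highest class was taken in each sample. The Psmb8 range was 2.64 ± 0.372 in iKO and 3.40 ± 0.203 in control samples (SD, n = 4 each, two-sided exact permutation p = 0.0286, adjusted p = 0.143 over the 10 members). Psmb9 spread over 2.09 ± 0.238 in iKO and 2.94 ± 0.464 in control samples (n = 4 each, exact permutation p = 0.0571, adjusted p = 0.143), and Tap1 over 1.46 ± 0.434 and 2.23 ± 0.222 (n = 4 each, exact permutation p = 0.0857, adjusted p = 0.143). H2-D1 had a range of 0.95 ± 0.219 in iKO and 0.90 ± 0.162 in control samples (n = 4 each, exact permutation p = 0.743), and the Tapbp range was higher in iKO samples, 1.55 ± 0.312 against 1.37 ± 0.234 (n = 4 each, exact permutation p = 0.429, adjusted p = 0.476). None of the 10 passed after adjustment, and the smallest p that 4 samples against 4 allow is 0.0286.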
